A study of Mus musculus with 6 samples.

Results

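This account follows 9 microRNAs (miRNAs, short RNAs that repress target transcripts) known as markers of neurons and oligodendrocytes, of 1247 mouse miRNAs on the array. They were chosen by name: mmu-miR-124-3p, mmu-miR-9-5p, mmu-miR-9-3p, mmu-miR-128-3p, mmu-miR-138-5p and mmu-miR-7a-5p for neurons, and mmu-miR-219-5p, mmu-miR-338-3p and mmu-miR-338-5p for oligodendrocytes (mmu for mouse, left out from here on). The question was how much of each was present in sorted brain microglia, beside 2 macrophage populations taken from outside the brain. Each of 3 groups had 2 one-colour Agilent miRNA arrays, 6 in all, of freshly isolated cells from wild-type male C57BL6/J mice aged 6 weeks in the sample labels (6 to 8 weeks in the design text). Microglia were sorted from brain as F4/80+ CD11b+ cells with intermediate CD45 that lacked Ly6C and Ly6G. Colon macrophages were CD64+ CD11c+ CD11b+ CD45+ cells lacking Ly6C, and liver macrophages (Kupffer cells) were MHCII+ CD64+ F4/80+ CD11b+ CD45+ cells. No gate names a surface marker of neurons or oligodendrocytes. Each array held RNA of a pool of 4 to 6 mice, so the spread is between pools, and the number of arrays limits the precision of every value.

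A miRNA is cut from a hairpin precursor that can yield a 5p and a 3p strand, and it finds its targets mainly through its seed, bases 2 to 8. miR-124 is the most abundant miRNA of neurons, where it represses non-neuronal transcripts, and it has also been reported to hold microglia in a quiescent state. miR-9 acts in neural progenitors and neurons, and miR-219 and miR-338 drive oligodendrocyte precursors to mature. In sorted brain cells such miRNAs are often read as a sign of RNA from other brain cells.

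The sequences are shown because seed and 3′ end decide which targets and which probes a miRNA can pair with. Of the 9 miRNAs 8 matched a mature sequence in RefSeq (GRCm38.p6), miR-219-5p under its newer name miR-219a-5p through the gene synonyms. miR-124-3p is named only. Capitals mark the seed, and the 8 sequences carry 8 different seeds.
miR-9-5p: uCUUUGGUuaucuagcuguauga
miR-9-3p: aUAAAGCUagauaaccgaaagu
miR-128-3p: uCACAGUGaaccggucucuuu
miR-138-5p: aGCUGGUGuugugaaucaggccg
miR-7a-5p: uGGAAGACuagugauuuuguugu
miR-219-5p: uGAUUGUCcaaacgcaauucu
miR-338-3p: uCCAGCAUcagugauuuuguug
miR-338-5p: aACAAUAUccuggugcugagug

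Several of these miRNAs come from more than 1 gene, so the array cannot say which locus was active. miR-9-5p lies at chr3:88215613-88215635 (plus strand), chr7:79505279-79505301 (plus) and chr13:83738821-83738843 (plus), within the spans of the transcripts Gm3764, Mir9-3hg and C130071C03Rik. miR-128-3p lies at chr1:128202404-128202424 (plus) within R3hdm1 and at chr9:112118644-112118664 (minus) within Arpp21. miR-7a-5p lies at chr13:58392841-58392863 (minus) within Hnrnpk and at chr7:78888295-78888317 (plus). miR-138-5p lies at chr8:94324312-94324334 (plus) within Nup93 and at chr9:122682898-122682920 (plus). miR-219-5p lies at chr2:29845689-29845709 (minus) within Cercam and at chr17:34025052-34025072 (minus). The miR-338 arms share 1 hairpin within Aatk, at chr11:120014781-120014802 for the 3p and chr11:120014816-120014837 for the 5p arm (minus). The strand of the genes that hold these miRNAs was not checked, nor whether the miRNAs are exonic or intronic there.

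Between 24.1% and 32.3% of the miRNAs were detected per array (300 and 330 for microglia, 403 and 352 for colon, 386 and 389 for liver). Levels are log2 scaled signals with a floor of 1.64, at which an undetected miRNA stands, and they are compared between groups within a miRNA only. The blood cell miRNA miR-142-3p was bright on all 6 arrays (11.24 to 12.31). Myeloid miR-223-3p was detected on all 6 as well, at 8.27 and 8.47 in microglia and 11.45 to 12.83 in the other groups. Microglia replicate 1 stood apart from replicate 2 in markers of epithelial, erythrocyte, endothelial and fibroblast cells, described below, and results without it are given. Over the 248 miRNAs detected on all arrays, the median gap between the replicates was 0.257 log2 units for microglia, 0.23 for colon and 0.567 for liver macrophages.

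On each microglia array 8 of the 9 miRNAs were detected, against 6 on each colon array and 5 on each liver array. miR-128-3p, miR-7a-5p, miR-219-5p, miR-338-3p and miR-338-5p were detected on all 6 arrays. miR-9-5p and miR-9-3p were 2 of the 14 miRNAs found on both microglia arrays and on no other. miR-138-5p, by contrast, was detected on neither microglia array. The signals of miR-124-3p, miR-9-5p and miR-9-3p on the microglia arrays were dim, at 3.90 to 5.62 times their own error, where the median detected miRNA had 11.0 on each of these arrays and the lowest 3.03 and 3.01.

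**Figure D1:**
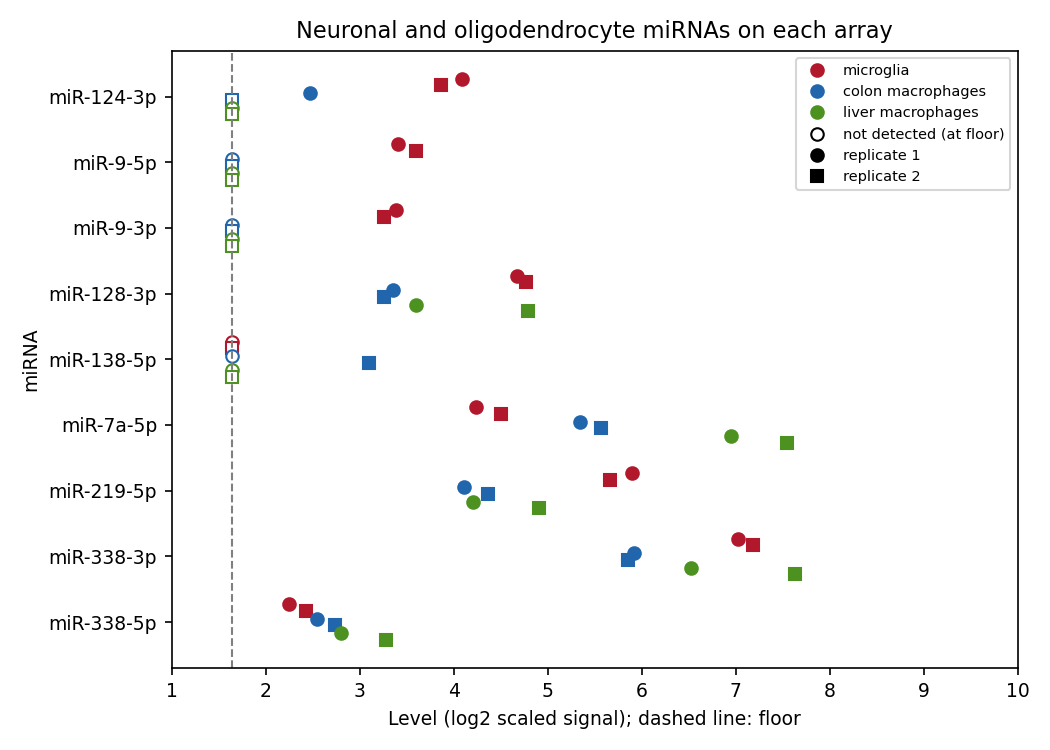
Levels of the 9 miRNAs (log2 scaled signal, x axis) on each of 6 arrays; colour is the group, circles and squares are replicates 1 and 2, and open symbols at the dashed floor of 1.64 are not detected. miR-9-5p and miR-9-3p lie above the floor on the microglia arrays alone, while miR-7a-5p is highest on the liver arrays.

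Among the neuronal miRNAs, miR-124-3p stood at 4.08 and 3.86 in microglia, at 2.47 on colon replicate 1 and at the floor on colon replicate 2 and both liver arrays. The microglia arrays were the highest, without overlap. Its mean was 3.97 ± 0.16 in microglia (SD, n = 2), a rise of 1.92 log2 units over colon macrophages (SE 0.36, limma adjusted p = 0.0134). Against liver macrophages, where it was not detected, its microglia mean was 5.03-fold above the floor (limma adjusted p = 0.00576). That fold is not a minimum, since a miRNA's own detection limit can lie above the floor. The colon value rests on 1 array with a signal 3.08 times its error. A group at the floor enters the fit with an SD of 0, which can make its SE and p too small. miR-124-3p passed the detection filter through microglia alone, with colon replicate 2 and both liver arrays at the floor, so its p-values add no support. Where 1 array is left out, the lone array of its group is assumed to vary like the other groups. The rise lost its call against both groups without microglia replicate 1, and against colon also without microglia replicate 2. Against colon it was not called either with no scaling, when scaled to spike-in controls or without the detection filter. Against liver it was not called without the filter.

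miR-9-5p, which targets the neuronal repressor complex of REST, was at 3.40 and 3.59 in microglia. Its partner arm miR-9-3p, which acts on the same complex, was at 3.39 and 3.26. Neither arm was detected on any colon or liver array. The folds are therefore set against the higher of each array's lowest detected signal and the floor. They are not minima, since a miRNA's own detection limit can lie higher. miR-9-5p in microglia was 3.08-fold above this limit for colon and 3.63-fold above it for liver macrophages (limma adjusted p = 0.00479 and 0.00371). miR-9-3p was 2.72-fold and 3.21-fold above it (limma adjusted p = 0.00649 and 0.00464). Both arms entered the test through their detection in microglia alone, with the other groups at a constant floor, so these p-values and their stability under other settings add no support.

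miR-128-3p, which dampens the excitability of neurons, was found in all 3 populations. Microglia gave 4.67 and 4.77, colon macrophages 3.35 and 3.26, and liver macrophages 3.60 and 4.79. Microglia and colon arrays did not overlap, but 1 liver array was as high as the microglia arrays. It rose by 1.41 log2 units in microglia over colon macrophages (SE 0.44, limma adjusted p = 0.0488), a call that 10 of 17 alternatives did not keep, among them those leaving out either microglia or either colon array (adjusted p 0.187 to 0.222). With the replicate number as a block the adjusted p was 0.0591. Against liver macrophages the change was 0.53 (SE 0.44, adjusted p = 0.339). It was 1.12 without liver replicate 2 (adjusted p = 0.00894) and -0.07 without liver replicate 1 (0.596).

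miR-138-5p, known to restrain dendritic spine growth in rat neurons, was detected on colon replicate 2 alone, at 3.10 with a signal 3.04 times its error. It passed the detection filter in no comparison and was not tested. A marker of neurons was thus at the floor on both microglia arrays.

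miR-7a-5p, known from neuroendocrine cells and neurons, ran in the opposite direction. Microglia gave 4.23 and 4.50, colon macrophages 5.34 and 5.57, and liver macrophages 6.95 and 7.54. The 3 groups did not overlap, with microglia lowest and liver macrophages highest. Microglia fell by 2.87 log2 units against liver macrophages (a 7.33-fold difference, SE 0.32, limma adjusted p = 0.00219), a call kept in all 17 alternatives. Microglia fell by 1.09 against colon macrophages (SE 0.32, limma adjusted p = 0.0433), and colon fell by 1.79 against liver macrophages (SE 0.32, adjusted p = 0.0332). The change against colon was not called when any 1 of the microglia or colon arrays was left out (adjusted p 0.112 to 0.173), nor after median scaling (-0.70, adjusted p = 0.0506), quantile normalization (-0.50, 0.107) or in the authors' value table (-0.51, 0.124). The colon to liver change was not called without either microglia or either colon array (adjusted p 0.0853 to 0.146).

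Of the oligodendrocyte miRNAs, miR-219-5p measured 5.89 and 5.66 for microglia, 4.11 and 4.37 for colon and 4.21 and 4.90 for liver macrophages. The microglia arrays were above the other 4, while colon and liver arrays overlapped (log2 change -0.32, SE 0.34, adjusted p = 0.567). miR-219-5p rose by 1.54 log2 units over colon (2.90-fold, SE 0.34, limma adjusted p = 0.0221) and by 1.22 over liver macrophages (2.33-fold, SE 0.34, limma adjusted p = 0.0308). Leaving out either microglia or either colon array ended both calls. Both were also lost with no scaling, when scaled to spike-in controls and without the detection filter. Fitting only the microglia and liver arrays ended the call against liver. Leaving out liver replicate 1 also ended the call against liver (0.87 log2 units, adjusted p = 0.0545).

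miR-338-3p, the partner of miR-219 in oligodendrocyte maturation, measured 7.02 and 7.19 for microglia, 5.91 and 5.85 for colon and 6.52 and 7.63 for liver macrophages. The liver arrays lay on either side of the microglia arrays. Its change was 1.22 log2 units against colon (SE 0.42, limma adjusted p = 0.0607) and 0.03 against liver macrophages (SE 0.42, adjusted p = 0.952). The rise against colon was called in 7 of 17 alternatives, among them median scaling, quantile normalization and the authors' value table. It was not called with no scaling or when scaled to spike-in controls. Leaving out liver replicate 1 or 2 left the change against colon the same. Against liver the change was -0.52 without liver replicate 1 (adjusted p = 0.0483) and 0.58 without liver replicate 2 (0.0348), so that the direction depended on which array was left out. In both fits the liver group was 1 array whose spread came from the other groups.

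The other arm, miR-338-5p, was near the floor everywhere, with 2.25 and 2.43 for microglia, 2.55 and 2.74 for colon and 2.80 and 3.28 for liver macrophages. Microglia were lowest, by -0.30 log2 units against colon (SE 0.29, limma adjusted p = 0.402) and -0.70 against liver macrophages (SE 0.29, adjusted p = 0.0919). The sign was not stable: against colon it turned positive after median scaling (0.08), quantile normalization (1.14) and in the authors' value table (1.55), and against liver in the last 2 of these (0.98 and 1.405). Without liver replicate 1 the change against liver was -0.94 (adjusted p = 0.0307).

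Against colon macrophages, 5 of the 8 tested miRNAs rose in microglia (miR-124-3p, miR-9-5p, miR-9-3p, miR-128-3p, miR-219-5p) and 1 fell (miR-7a-5p). Over all 379 miRNAs tested, 17.7% were called higher and 28.5% lower. The 2 miR-9 arms and miR-124-3p, the last detected on 1 colon array, passed the detection filter through microglia alone, so their place in this count is no support. Of the 5 miRNAs detected on all arrays, 2 rose, 1 fell and 2 were not called. The shares above are over all tested miRNAs, so they are not matched to these 5. The median change was 1.47 log2 units over the 8 and 1.22 over the 5 detected on all arrays, beside -0.43 over all tested miRNAs. Relative to that shift the changes were 2.34 for miR-124-3p, 1.97 for miR-219-5p, 1.84 for miR-128-3p, 1.65 for miR-338-3p, 0.13 for miR-338-5p and -0.66 for miR-7a-5p.

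Against liver macrophages 4 of 8 rose (miR-124-3p, miR-9-5p, miR-9-3p, miR-219-5p) and 1 fell (miR-7a-5p), where 21.2% of 382 tested miRNAs were called higher and 31.7% lower. miR-124-3p and the miR-9 arms entered through microglia alone. Of the 5 miRNAs detected on all arrays, 1 rose and 1 fell, and again the shares above are not matched to these 5. The median change was 0.87 over the 8, 0.03 over the 5 detected on all arrays and -0.60 over all tested. Relative to that, miR-219-5p stood at 1.82, miR-128-3p at 1.13, miR-338-3p at 0.64, miR-338-5p at -0.10 and miR-7a-5p at -2.27. The 2 comparisons share the microglia arrays and are not independent.

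Between colon and liver macrophages 5 of the miRNAs could be tested and 1, miR-7a-5p, was called, lower in colon. Of all 396 tested, 5.3% were called higher and 4.8% lower. The median change was -0.89 over the 5, beside -0.04 over all tested. Without liver replicate 1, miR-128-3p (-1.48) and miR-338-3p (-1.74) passed the threshold, lower in colon (limma adjusted p = 0.0113 for each), but the liver group was then 1 array and its spread came from the other groups.

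**Figure D2:**
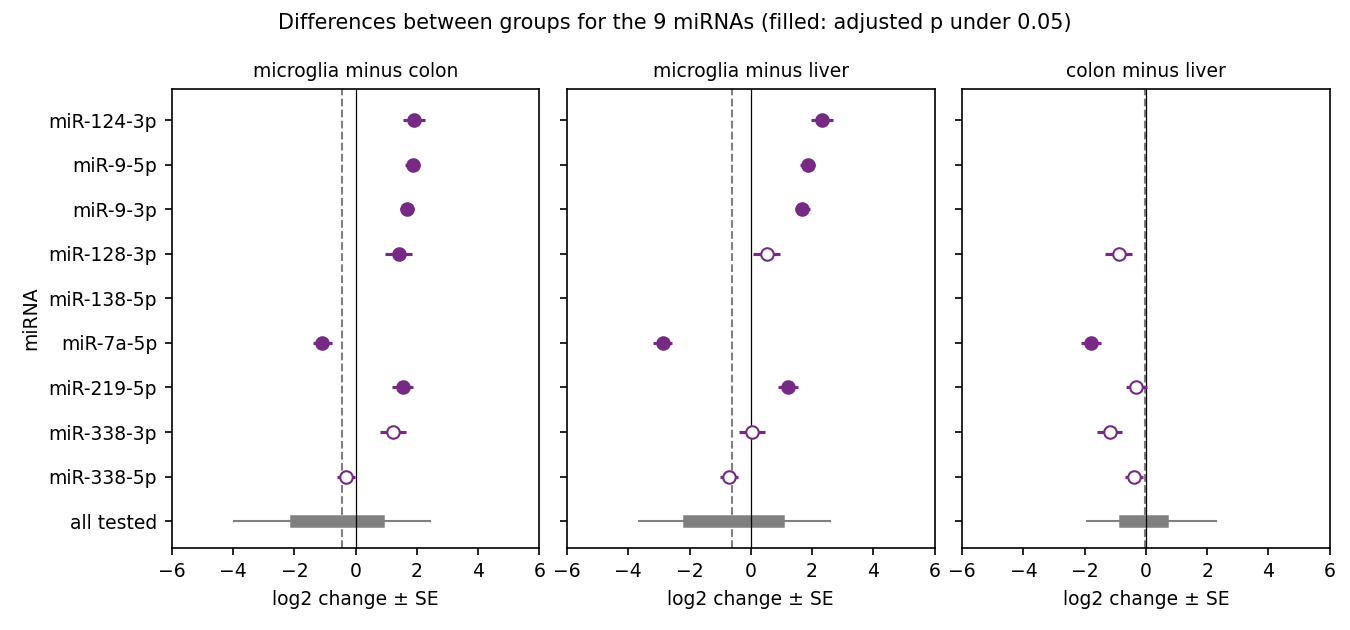
Log2 change with its SE (x axis) for each of the 9 miRNAs in the 3 comparisons; filled points passed an adjusted p of 0.05, the dashed line is the median of all tested miRNAs, and the grey bar their middle 50% with lines to the 5th and 95th percentiles. miR-124-3p and the miR-9 arms lie to the right in both microglia comparisons, and miR-7a-5p to the left in all 3.

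The scaling of the arrays moved these counts. Against colon macrophages the 8 miRNAs split into 6 higher and 0 lower after median scaling, quantile normalization and in the authors' value table (7 at an unadjusted p under 0.05 in each). The 6 included miR-338-3p, which was not called as reported. The 8 split into 2 higher and 1 lower without scaling or when scaled to spike-in controls. Those 2 were the miR-9 arms, which entered through microglia alone. The same settings split all tested miRNAs into 112 higher and 69 lower, 99 and 67, 95 and 65, 29 and 108, and 25 and 105, beside 67 and 108. Against liver macrophages the 8 split into 4 higher and 1 lower under the first 3 settings and 3 higher and 1 lower under the other 2. The 3 were miR-124-3p and the miR-9 arms, which entered the liver comparison through microglia alone. All tested miRNAs there split into 124 and 108, 112 and 97, 107 and 99, 36 and 126, and 34 and 120, beside 81 and 121. miR-7a-5p was called lower in microglia than in liver macrophages under each of these scalings.

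**Figure D3:**
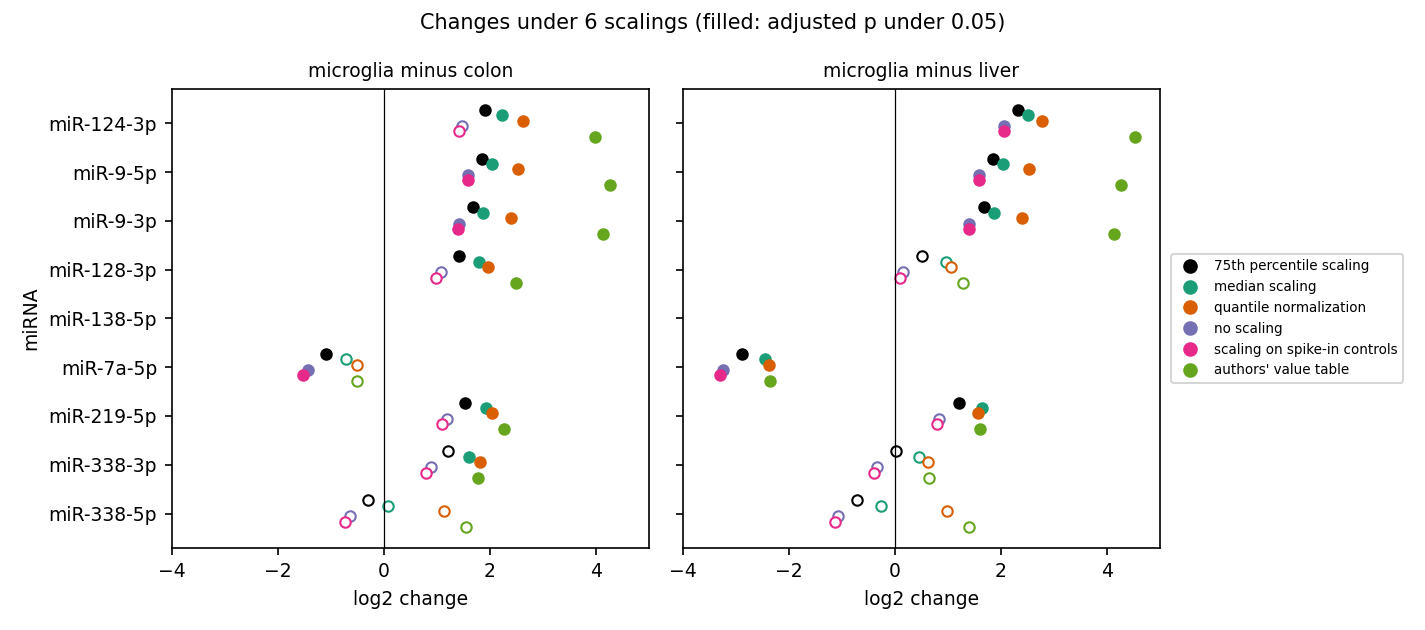
Log2 change (x axis) of each miRNA in microglia against colon (left) and liver macrophages (right) under 6 scalings; filled points passed an adjusted p of 0.05. miR-124-3p, miR-9-5p, miR-9-3p, miR-128-3p and miR-219-5p are positive under every scaling, and miR-7a-5p negative under every one. miR-338-5p changes sign in both comparisons, and miR-338-3p changes sign against liver macrophages. In the authors' value table the undetected values of miR-124-3p and the miR-9 arms stand at 0.

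The ratio of 2 signals on the same array does not depend on the scaling, and it can be compared between arrays. The pairs were chosen after the values were seen and are given without a test. The ratio of miR-338-3p to miR-338-5p was 27.4 and 27.1 for microglia, 10.3 and 8.67 for colon and 13.2 and 20.3 for liver macrophages. This ratio of the 2 arms of 1 hairpin was highest in microglia, but miR-338-5p was near the floor on every array, which limits its precision. The ratio of miR-219-5p to miR-338-3p was 0.456 and 0.346 for microglia, 0.286 and 0.357 for colon and 0.201 and 0.152 for liver macrophages, with overlap between microglia and colon. The ratio of miR-7a-5p to miR-7a-1-3p, the 3p arm of the Hnrnpk copy, was 1.28 and 1.41 for microglia, 4.15 and 5.01 for colon and 12.6 and 9.46 for liver macrophages. This arm stood at 3.88 and 4.01 in microglia, 3.29 and 3.25 in colon and 3.30 and 4.30 in liver macrophages, and was called in no comparison.

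**Figure D4:**
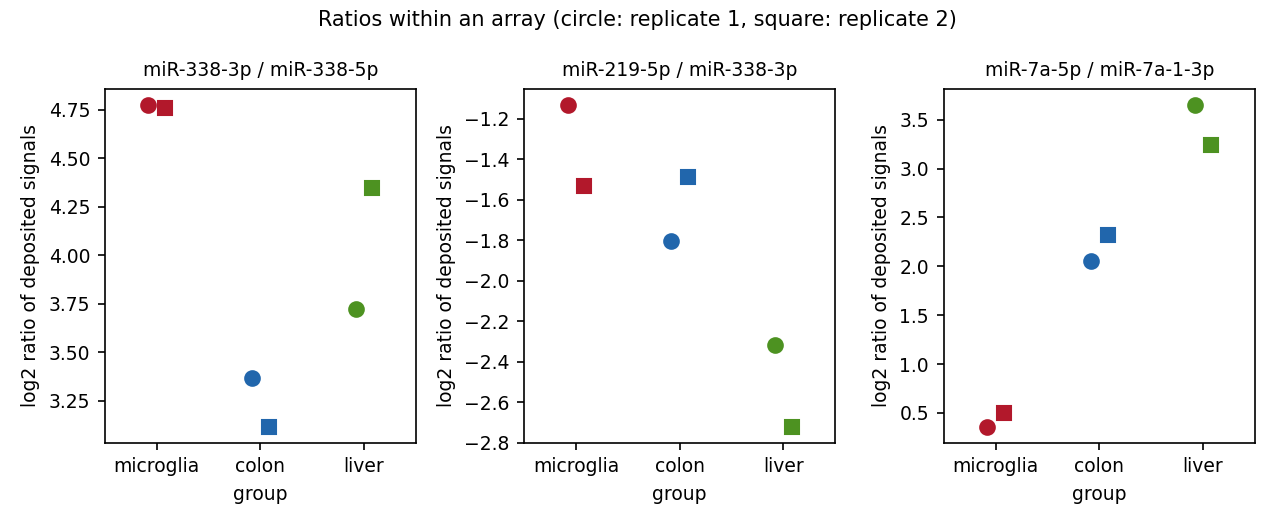
Log2 ratio of 2 deposited signals on the same array (y axis, each panel with its own range) by group. The ratio of the miR-338 arms is highest in microglia, at 4.77 and 4.76, and that of miR-7a-5p to miR-7a-1-3p lowest, at 0.36 and 0.50.

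miR-7a-5p and miR-338-3p have different seeds but share a run of 13 bases, from base 10 to base 22 of each. This was the longest among all pairs of the 8 miRNAs whose sequences were matched. The run, in capitals below, also lies in the paralog miR-7b-5p except for its first base. miR-7b-5p differs from miR-7a-5p by A10U, counted from 1 at the 5′ end with the base of miR-7a-5p first, and by 1 more base at its 3′ end.
miR-7a-5p: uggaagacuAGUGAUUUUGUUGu
miR-338-3p: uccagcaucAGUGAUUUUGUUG
miR-7b-5p: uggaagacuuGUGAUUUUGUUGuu
Whether a probe for 1 of these also reads another was not tested, since the probe sequences were not used here. miR-7b-5p was detected on no array, including the liver arrays where miR-7a-5p was at 6.95 and 7.54. miR-338-3p and miR-7a-5p ordered the arrays alike in part. Both were higher on the liver than on the colon arrays, and highest on liver replicate 2. Microglia were lowest for miR-7a-5p but above colon macrophages for miR-338-3p.

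The partner arms and close relatives of the 9 miRNAs were mostly not seen. Of 13 on the array 11 were detected on no array, among them miR-124-5p, both miR-128 5p arms, both miR-138 3p arms and both miR-219 3p arms. Beside miR-7a-1-3p, miR-3065-3p, made from the strand opposite miR-338, was detected on liver replicate 2 alone at 2.67.

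Of 14 other neuron-enriched miRNAs on the array 4 were detected anywhere and 10 nowhere, including miR-137-3p, miR-153-3p, miR-218-5p and miR-129-5p. None of the 3 tested rose in microglia in limma's test against either population (0 higher at an unadjusted p under 0.05). miR-129-2-3p was found on microglia replicate 2 alone, at 3.46. miR-132-3p, induced by activity in neurons and also expressed in immune cells, was at the floor and 3.53 in microglia, 6.37 and 6.80 in colon and 5.29 and 5.88 in liver macrophages. It fell in microglia, with log2 changes of -4.004 against colon and -3.002 against liver macrophages (limma adjusted p = 0.0105 and 0.0172). It passed the detection filter through the colon and liver arrays alone, with 1 microglia array at the floor, so these p-values add no support. miR-134-5p, a dendritic miRNA, stood at 3.97 and 4.03 in microglia, 4.86 and 4.73 in colon and 5.01 and 5.44 in liver macrophages, and fell against liver by 1.23 (limma adjusted p = 0.0172). miR-212-3p, from the same hairpin cluster as miR-132, lay between 6.52 and 7.10 on every array and was called in no comparison.

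Over the 6 arrays the profiles most like that of miR-124-3p among 406 other tested miRNAs were those of miR-5117-3p (r = 0.981), miR-467a-3p (0.975) and miR-181a-5p (0.970). For miR-219-5p they were miR-140-3p (0.966), miR-101b-3p (0.965) and miR-322-5p (0.957). These correlations describe 6 arrays that share scaling and groups, and each miRNA named is higher on both microglia arrays than on the other 4.

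The 2 microglia arrays gave nearly the same levels for the 8 detected miRNAs, which differed by 0.10 to 0.27 log2 units. Several markers of cell types other than neurons and oligodendrocytes differed more, with a higher level on replicate 1. Of 6 epithelial miRNAs 6 were detected on replicate 1 and 2 on replicate 2, and their summed scaled signal was 645 against 55.2, beside 3180 and 2223 for colon and 15.6 and 34.4 for liver macrophages. miR-200b-3p was at 7.94 and at the floor, miR-200a-3p at 6.98 and the floor, miR-429-3p at 6.17 and the floor, miR-141-3p at 6.18 and the floor, and miR-200c-3p at 6.30 and 2.85. The sixth, miR-203-3p, was at 5.62 and 5.58 and was called higher in microglia than in colon (1.29 log2 units, limma adjusted p = 0.0477) and liver macrophages, where it was not detected. Of the other neuron-enriched miRNAs, miR-132-3p and miR-129-2-3p were detected on replicate 2 alone, and miR-212-3p differed by -0.35. Detected on replicates 1 and 2 were also 2 and 1 of 2 erythrocyte, 1 and 0 of 2 endothelial, 1 and 0 of 4 smooth muscle and fibroblast, and 1 and 1 of 2 hepatocyte miRNAs. Erythrocyte miR-451a was at 9.46 and 6.93, endothelial miR-126-3p at 5.15 and the floor, and fibroblast miR-199a-3p at 5.00 and the floor. On replicate 2, where the last 2 and 4 of the epithelial miRNAs were not detected, miR-124-3p stood at 3.86, miR-9-5p at 3.59, miR-128-3p at 4.77 and miR-219-5p at 5.66. Hepatocyte miR-122-5p was on both microglia arrays, at 8.11 and 7.30, and its part in these levels, like that of the other markers, was not tested.

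The summed scaled signal of the 6 neuronal miRNAs was 82.3 and 86.1 for microglia, 56.4 and 65.7 for colon and 135 and 214 for liver macrophages. miR-7a-5p alone gave 123 and 186 of the liver sums. Without it the sums were 63.5 and 63.4 for microglia, 15.8 and 18.2 for colon and 12.1 and 27.6 for liver macrophages. Microglia were then highest in place of liver macrophages. miR-7a-5p was left out after its values were seen, and miR-124-3p and the miR-9 arms passed the detection filter through microglia alone. These sums add signals of different probes and are a description. That of the 3 oligodendrocyte miRNAs was 194 and 202 for microglia, 83.4 and 85.2 for colon and 117 and 237 for liver macrophages. miR-9-5p and miR-9-3p were at the floor on all colon and liver arrays, and miR-138-5p on both microglia arrays. In bulk RNA of a sorted pool, a few cells of another type with much of a miRNA and a low level in every cell cannot be told apart.

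**Figure D5:**
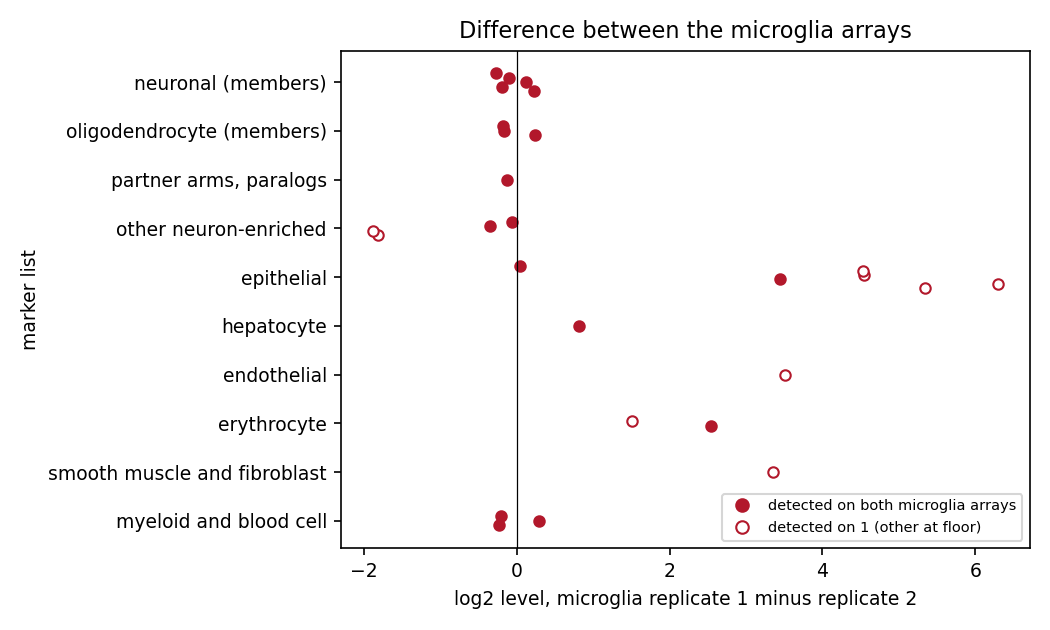
Log2 level on microglia replicate 1 minus replicate 2 (x axis) for each listed miRNA detected on at least 1 microglia array, by marker list; open circles were detected on 1 array and stand at the floor on the other. The 8 detected marker miRNAs of the 9 lie within 0.27 of 0. Of the other lists, 5 of 6 epithelial miRNAs are 3.445 to 6.30 higher on replicate 1, miR-203-3p lies at 0.04, and the neuron-enriched miR-132-3p and miR-129-2-3p lie at -1.88 and -1.82.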

How the data were processed

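The authors deposited, per the file headers, 1 table per array with a total gene signal (an intensity on a linear scale), its error and a detection flag, as written by Agilent Feature Extraction 9.1 per the submitters' processing notes. Undetected miRNAs stand at 0.1. Per the labels, 100 ng total RNA was labelled with Cy3. A value table the authors deposited, taken to be on a log2 scale because its values correlated with the log2 signals at 0.9953 to 0.9988 per array, served as an alternative. Its median was 3.72 on each array, and how it was normalized is not stated in these sources. Leaving out 21 control rows, signals were scaled so that the 75th percentile of the 248 miRNAs found on every array was equal across arrays. Values under 3.12 scaled units (the median of the 6 arrays' smallest detected values) were raised to that floor before taking log2. limma 3.58.1 in R 4.3.3 fitted 3 group means over all 6 arrays to 414 miRNAs (eBayes, 2-sided). P-values were adjusted per comparison (Benjamini-Hochberg) over miRNAs found on both arrays of either group, with a threshold of 0.05. The fit was tested on simulated data. Where a group had no detection, folds set the brighter mean against a limit chosen after seeing the data. This limit is the mean, over the dimmer arrays, of the higher of the array's lowest detected signal and the floor. It is taken over all miRNAs, and a miRNA's own limit can lie higher, so the folds are not minima. All 9 miRNAs are named. Relatives and other neuron-enriched miRNAs are named if detected, and other marker miRNAs if detected on both arrays of some group and over 1 log2 unit apart between the microglia arrays, beside miR-142-3p and miR-223-3p. The 3 profiles most like that of miR-124-3p and of miR-219-5p are named too. miR-122-5p, miR-203-3p and the undetected miRNAs named fall outside this rule and were chosen after their values were seen. The members and lists were chosen with earlier results of these data known.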

Additional observations from a re-analysis of the deposited data

How the results depend on the processing

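Of 351 results of single miRNAs under alternatives, 279 kept direction and side of the threshold. The count of the 9 miRNAs called against colon macrophages, 6 as reported, was 3 without scaling or when scaled to spike-in controls and 2 without the detection filter. Against liver macrophages, 5 as reported, it was 3 without the filter and 2 over miRNAs detected on all arrays, where 5 were left to test. Between colon and liver macrophages, 1 as reported, limma called 0 unscaled, scaled to spike-in controls, without the filter or with only these groups fitted (1 at an unadjusted p under 0.05 in each). Leaving out 1 array gave 2 to 7, 3 to 7 and 0 to 3. Over all miRNAs the counts (175, 202 and 40) were 27, 52 and 7 without the filter. They were 111 and 19 against colon and between colon and liver over miRNAs detected on all arrays. The last comparison gave 26 with no scaling and 24 on spike-in controls. Leaving out 1 array gave 54 to 202, 121 to 228 and 25 to 110. A floor 0.5 or 2 times as high kept each of these counts within 1.5 times.

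Reversed directions all concerned changes that were not called as reported: miR-338-5p against colon (0.082 after median scaling, 1.14 after quantile normalization, 1.55 in the authors' value table) and against liver (0.98 and 1.405 in the last 2), miR-338-3p against liver (-0.34 with no scaling, -0.38 on spike-in controls, -0.05 without microglia replicate 2, and -0.52 to 0.58 without a liver replicate), miR-128-3p against liver (-0.068 without liver replicate 1 and 1.12 without liver replicate 2) and miR-219-5p between colon and liver (0.032 without liver replicate 2, -0.67 without liver replicate 1). The cause was not tested. With the replicate number as a block, 161, 191 and 24 miRNAs were called, and 5, 5 and 1 of the 9. Deviations of arrays with the same number correlated at 0.214, 0.0715 and -0.0922, so the numbers were not taken as pairs. Scaling on the 75th percentile of all miRNAs could not be run, because on microglia replicate 1 that percentile is the placeholder of undetected miRNAs. The dim neuronal miRNAs lie close to the detection limit, which limits the size of their differences. Set against each array's own lowest detected signal, without the floor, the folds of miR-9-3p and miR-9-5p were 2.92 and 3.30 against colon and 3.64 and 4.12 against liver macrophages, and that of miR-124-3p against liver 5.71.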
